A study of Mus musculus with 12 samples.

Results

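The extracellular matrix is the scaffold of secreted proteins that surrounds cells. Fibrillar collagens give it tensile strength, type IV collagen forms the sheet of the basement membrane, small leucine-rich proteoglycans bind and space the fibrils, elastic fibres give recoil, and glycoproteins such as fibronectin link matrix to cell receptors. In the uterus most of these proteins are made by stromal fibroblasts, smooth muscle and blood vessels, and scar tissue within the cavity is rich in fibrillar collagen. Macrophages make fibronectin and a few collagens and also take up and degrade matrix.

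The genes described here are 37 collagens and matrix proteins of the mouse. They were taken from a list of 66 names, which held 44 collagen chains and 22 further matrix genes, by asking for at least 1 FPKM in 3 or more of the 12 libraries. FPKM counts sequenced fragments relative to transcript length and library size, so it is a level per length. All 22 further genes and 15 collagens met the threshold, among 11604 genes that met it in a table of 22294. Of the 37 genes, 29 reached 1 FPKM in all 12 libraries. The other 8 are Fbn1, Col5a1, Col4a5, Loxl1, Loxl2, Fmod, Col6a4 and Col15a1. Col6a4 and Col15a1 reached it in 4 libraries each, 3 of them Sham, so they entered through the group in which they were highest. They had to differ from Sham, and their values against Sham are given with no test. Fmod reached 1 FPKM in 5 libraries, all of them Sham or IUA, so it too entered through the groups in which it was highest. Its calls in treated groups against IUA or Sham are favoured by that threshold and are no test. Just outside lay Col8a1 and Col16a1, with 2 libraries each. Of the remaining 27 collagen names, Col12a1 (1.79 FPKM in IUA replicate 1) and Col4a3 (1.11 FPKM in Sham replicate 2) reached 1 FPKM in 1 library each. The other 25 stayed under it in every library, with a highest value of 0.86 FPKM for Col4a6.

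RNA was sequenced from endometrial cells of mice that magnetic beads had sorted for F4/80, a surface antigen of macrophages, with 3 libraries in each of 4 groups. In 2 of the groups the mice carried a model of intrauterine adhesion (IUA) and received mesenchymal stromal cells (MSC) of human umbilical cord, which were either primed with inflammatory cytokines (called primed MSC here) or left as control cells (control MSC). The IUA group carried the model without cells, and its libraries are named Matrigel, a basement membrane extract used as a gel. The Sham group had a sham operation. Strain, age, cell dose, the way the model was made and the time of sampling are not given in the sources used here, nor is whether Matrigel was given in the other groups. Nothing states that libraries came from separate animals, so the spread behind each p-value is that of these samples alone and may be technical.

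The sorted fraction was not pure. A list of 12 macrophage genes, among them Adgre1, which encodes F4/80, made up 6.34 to 6.68 percent of a library's summed FPKM in primed MSC, 6.26 to 6.72 percent in control MSC, 5.64 to 6.27 percent in IUA and 2.39 to 2.89 percent in Sham. A list of 9 measured genes of uterine epithelium made up 0.28 to 0.43 percent in primed MSC and 0.27 to 0.69 percent in control MSC. It made up 0.28 to 0.96 percent in IUA and 1.48 to 2.70 percent in Sham. Fibroblast genes were present too, 13 of a list of 19 above the threshold. Pdgfra, their defining receptor, was above 0 in every library, and Clec3b, a marker of connective tissue fibroblasts, was listed at 0 in all primed and control MSC libraries and in IUA replicate 3. The fibroblast list summed to 60.2 to 94.3 FPKM in primed MSC, 97.4 to 111 FPKM in control MSC, 119 to 208 FPKM in IUA and 120 to 192 FPKM in Sham. Igf1, a growth factor that macrophages also make, was 70.4 to 75.5 percent of that sum in primed MSC, 70.8 to 77.7 percent in control MSC, 62.9 to 80.4 percent in IUA and 43.1 to 48.8 percent in Sham. Without Igf1 the list summed to 14.8 to 23.3 FPKM in primed MSC, 21.7 to 32.4 FPKM in control MSC, 29.8 to 77.3 FPKM in IUA and 63.8 to 110 FPKM in Sham. The mean of all 13 genes as log2(FPKM + 1) was 1.36 to 1.69 in primed MSC, 1.61 to 1.96 in control MSC, 1.87 to 2.50 in IUA and 2.66 to 3.25 in Sham. The IUA library at 2.50 was replicate 1, and the other 2 IUA libraries were at 1.87 and 1.89. IUA replicate 1 was the highest IUA library for 32 of the 37 matrix genes, and Sham replicate 1 the highest Sham library for 34. In bulk RNA of this kind, fewer cells of a type and less RNA per cell cannot be told apart.

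**Figure D1:**
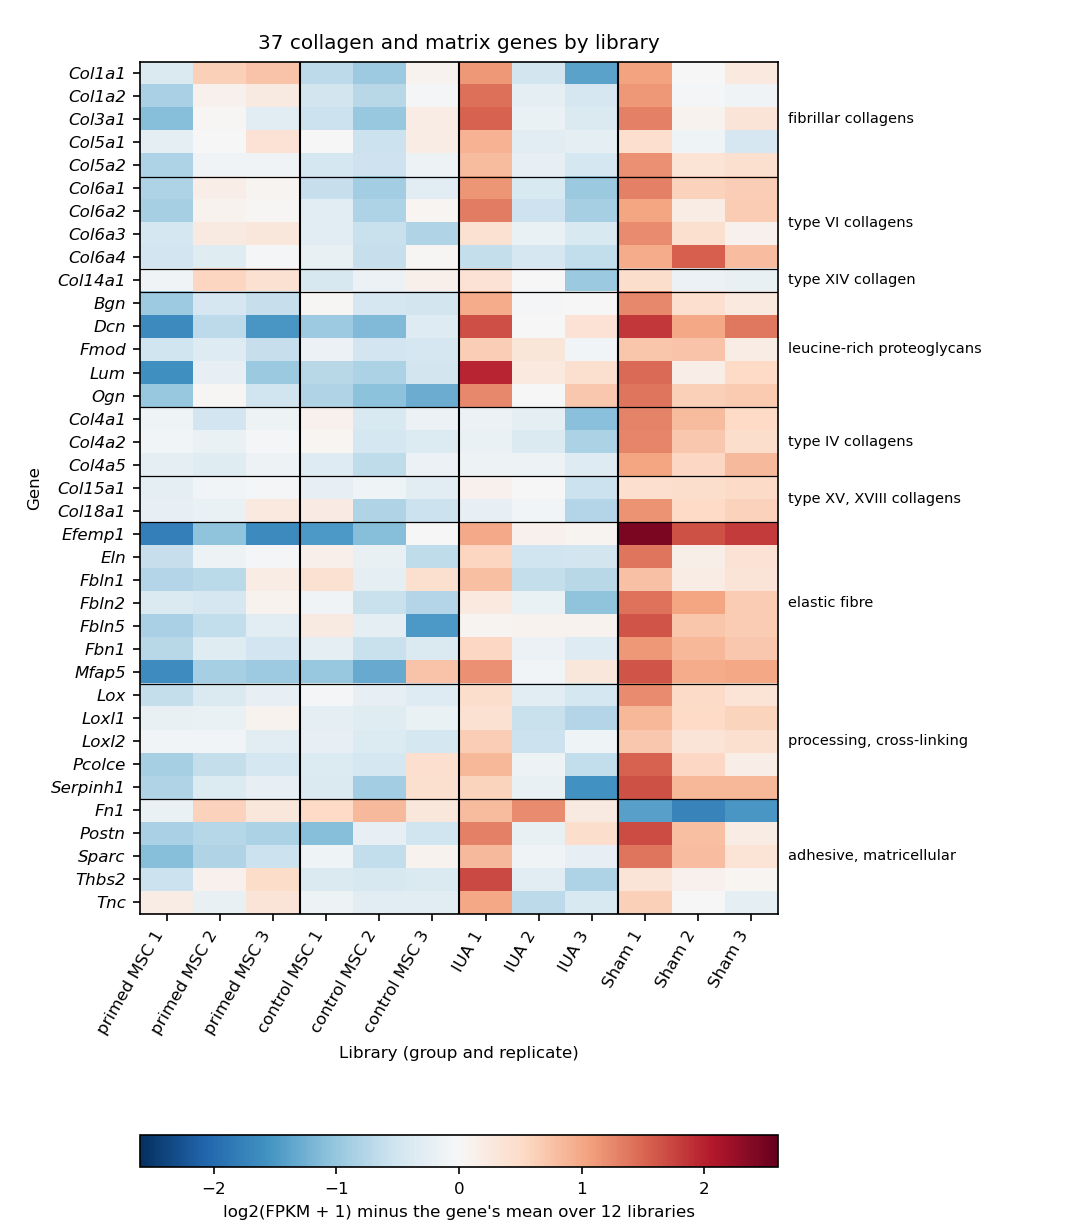
Levels of the 37 matrix genes in 12 libraries, as log2(FPKM + 1) minus each gene's mean over the libraries. Columns are the 3 libraries of each group and rows are genes ordered by role. Fn1 is low in all 3 Sham libraries, most other genes are high in Sham, and IUA replicate 1 stands above the other 2 IUA libraries for 32 of the 37 genes.

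The results of 4 sets of genes come first, and these sets leave out others of the 37. The type IV collagens and Col18a1, collagens of the basement membrane, fell in IUA against Sham, and none of them passed the test in a treated group against IUA. The same held for Fbln2, Fbln5, Fbn1, Lox, Loxl1 and Serpinh1, which have other roles. None of the 5 small leucine-rich proteoglycans passed in IUA against Sham, and all 5 fell in primed MSC against IUA. Of these, Fmod met the threshold only through IUA and Sham. The fibrillar collagens of types I, III and V passed the test in no comparison, except for Col5a2, which fell in both treated groups against Sham. Fibronectin rose against Sham in all 3 groups with the model. Over the 4 groups, 26 of the 37 genes differed by the moderated F test of limma, against a background of 67 percent of all genes tested. A gene is said to rise, fall or pass where its limma test on log2(FPKM + 1) gave a p under 0.05 after Benjamini-Hochberg adjustment across the 11604 genes. In IUA against Sham 13 of the 37 genes fell and 1 rose, while 56.2 percent of all genes tested passed, 45 percent as lower and 11.1 percent as higher. The 13 include Col6a4 and Col15a1, and among the other 35 genes 11 fell. In primed MSC against IUA 9 fell and none rose, beside 6.97 percent of all genes that fell and 12.2 percent that rose. The 9 include Fmod.

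Type IV collagen is the network of the basement membrane, and its main form is assembled from the chains encoded by Col4a1 and Col4a2. These genes lie head to head on chromosome 8 of the mouse, and their annotated ends overlap by 22 bases (Col4a1 at chr8:11198423-11312826 on the minus strand, Col4a2 at chr8:11312805-11449287 on the plus strand, mm10). Their promoter windows are shown because the genes share a start region and both fell in IUA against Sham. Each window runs from 250 bases before the start to 50 after it, 5′ to 3′ on the gene's own strand (RefSeq, GRCm38.p6), at chr8:11312777-11313076 for Col4a1 and chr8:11312555-11312854 for Col4a2. Capitals mark the 78 bases that both windows hold, read from opposite strands.
Col4a1: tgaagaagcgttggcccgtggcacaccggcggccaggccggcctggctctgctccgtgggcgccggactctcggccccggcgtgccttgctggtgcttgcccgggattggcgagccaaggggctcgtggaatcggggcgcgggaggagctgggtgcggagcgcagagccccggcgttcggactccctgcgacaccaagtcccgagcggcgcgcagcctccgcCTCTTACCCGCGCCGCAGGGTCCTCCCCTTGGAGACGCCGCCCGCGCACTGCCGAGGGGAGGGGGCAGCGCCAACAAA
Col4a2: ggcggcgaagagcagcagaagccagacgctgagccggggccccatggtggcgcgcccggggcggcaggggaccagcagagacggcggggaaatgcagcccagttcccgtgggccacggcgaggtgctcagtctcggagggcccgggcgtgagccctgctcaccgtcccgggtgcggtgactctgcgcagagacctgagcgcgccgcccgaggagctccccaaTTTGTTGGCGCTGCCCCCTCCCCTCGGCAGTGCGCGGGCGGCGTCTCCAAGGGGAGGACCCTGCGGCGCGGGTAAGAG
Both windows are rich in G and C, at 74 and 73.7 percent. RefSeq windows were found for 26 of the 37 genes.

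Col4a1 had 9.46, 8.82 and 4.44 FPKM in IUA, against 27.4, 19.6 and 15.7 FPKM in Sham. Every IUA library lay below every Sham library, and Col4a1 fell (log2 change -1.37 ± 0.26, SE, limma adjusted p = 0.00102). Col4a2 had 3.39, 2.84 and 1.81 FPKM in IUA, against 10.9, 7.06 and 5.82 FPKM in Sham, and fell by 1.26 ± 0.22 on the log2 scale (limma adjusted p = 7.29e-04). The ratio of Col4a1 to Col4a2 FPKM within a library was 2.42 ± 0.27 in primed MSC, 3.02 ± 0.26 in control MSC, 2.78 ± 0.33 in IUA and 2.66 ± 0.13 in Sham (SD, n = 3). The ratio lay between 2.11 and 3.30 in all 12 libraries while the level of Col4a1 spanned 4.44 to 27.4 FPKM. Col4a5, whose chain serves specialised basement membranes, averaged 0.973 ± 0.159 FPKM in IUA and 2.97 ± 0.655 FPKM in Sham and fell as well (log2 change -0.997 ± 0.17, limma adjusted p = 5.61e-04).

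Col18a1, a multiplexin collagen of basement membranes and the precursor of endostatin, was at 2.61, 3.00 and 1.47 FPKM in IUA and 8.41, 4.96 and 5.32 FPKM in Sham. It fell in IUA against Sham by 1.10 ± 0.28 on the log2 scale (limma adjusted p = 0.00545). Col15a1, the other multiplexin, had 1.04, 0.87 and 0.27 FPKM in IUA and 1.55, 1.57 and 1.67 FPKM in Sham. Col6a4, a type VI chain, had 0.27, 0.44 and 0.26 FPKM in IUA and 2.83, 4.79 and 2.40 FPKM in Sham. Both met the threshold through Sham, so these are values alone. The 12 other basement membrane genes measured outside the 37 were laminins, nidogens and Agrn, a heparan sulphate proteoglycan. Of these 12, 10 fell and none rose in IUA against Sham, beside 45 percent of all genes that fell. The median log2 change of the 12 was -0.93. Lamb2, the laminin beta 2 chain, changed by -2.02 ± 0.22 and the linker Nid1 by -1.23 ± 0.22. In primed MSC against IUA 1 of the 12 rose and 1 fell, Lamb2 at 0.90 ± 0.22 and Lama2, the laminin alpha 2 chain, at -0.69 ± 0.20.

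None of the type IV, XV and XVIII chains passed the test when either treated group was set against IUA. Col4a1 stood at 9.75, 7.21 and 9.58 FPKM in primed MSC and 11.6, 7.76 and 9.47 FPKM in control MSC, which overlapped IUA and lay below every Sham library. Against Sham Col4a1, Col4a2, Col4a5 and Col18a1 fell in both treated groups. Endothelial genes, the products of a cell type that builds basement membrane, had list means of 2.78 to 3.17 in primed MSC, 2.97 to 3.58 in control MSC, 3.12 to 3.67 in IUA and 4.28 to 5.01 in Sham. Of the 11 genes on that list, 10 fell in IUA against Sham, and epithelial genes, 9 of 9, fell too, beside 45 percent of all genes. The part of endothelial and epithelial cells in the lower type IV collagen was not tested.

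The fibrillar collagens form the rope-like fibres of scar and stroma. Col1a1 and Col1a2 encode the chains of type I collagen (chr11:94936224-94953042 and chr6:4504814-4541544, mm10), and Col3a1 encodes type III (chr1:45311538-45349706). Col1a1 had 16.0, 32.7 and 35.7 FPKM in primed MSC, 12.7, 10.4 and 22.5 in control MSC, 46.6, 14.8 and 7.34 in IUA and 44.1, 20.6 and 25.2 in Sham. The IUA libraries alone spanned the range of all other groups, and IUA replicate 1 was the highest library of the study.

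Col1a2 had 11.6, 23.3 and 25.6 FPKM in primed MSC, 15.2, 12.7 and 21.2 in control MSC, 59.8, 18.2 and 15.8 in IUA and 48.7, 20.9 and 20.2 in Sham. Col3a1 averaged 36.5 ± 13.8 FPKM in primed MSC, 37.1 ± 16.0 in control MSC, 73.3 ± 58.1 in IUA and 77.7 ± 37.2 in Sham (SD, n = 3). The spread within IUA was wide for the type I chains as well, with means of 22.9 ± 20.9 FPKM for Col1a1 and 31.2 ± 24.7 FPKM for Col1a2. In IUA against Sham the log2 changes were -0.68 ± 0.54 for Col1a1, -0.08 ± 0.48 for Col1a2 and -0.26 ± 0.50 for Col3a1, and none passed (limma adjusted p = 0.304, 0.9 and 0.68). Without IUA replicate 1, Col1a1 passed at a log2 change of -1.36 (limma adjusted p = 0.0221), while Col1a2 at -0.66 and Col3a1 at -0.85 did not.

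Most chains of types V and VI did not pass in IUA against Sham either. Col5a1 and Col5a2, which set the diameter of type I fibrils, changed by 0.16 ± 0.33 and -0.61 ± 0.33 in IUA against Sham without passing. Col6a1, Col6a2 and Col6a3, the chains of the beaded microfibrils around cells, were at -0.92 ± 0.45, -0.66 ± 0.49 and -0.65 ± 0.31 without passing. Col6a1 had 38.1, 12.4 and 7.99 FPKM in IUA, against 42.4, 25.8 and 26.4 FPKM in Sham. Without IUA replicate 1 it fell by 1.53 on the log2 scale and passed, as did Col5a2, Col6a2 and Col6a3. Col14a1, a collagen that sits on the surface of fibrils, did not pass either (log2 change -0.23 ± 0.31).

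Type I collagen is built from both of its chains, and the balance of their messages was taken within each library. The ratio of Col1a1 to Col1a2 FPKM was 1.38, 1.40 and 1.39 in primed MSC, 0.838, 0.819 and 1.06 in control MSC, 0.78, 0.816 and 0.464 in IUA and 0.907, 0.986 and 1.25 in Sham. Every primed MSC library lay above all 9 others, and no test was run, since the ratio was chosen after the values were seen. The transcript of Col1a1 has a GC content of 58.9 percent and that of Col1a2 one of 55.7 percent. The libraries differed in how their values followed GC content: the Spearman correlation of log2(FPKM + 1) with transcript GC over 11601 genes, which are not independent replicates, was -0.059 to -0.051 in primed MSC, -0.111 to -0.084 in control MSC, -0.213 to -0.121 in IUA and -0.076 to -0.073 in Sham. IUA replicate 3 had both the lowest Col1a1 to Col1a2 ratio and the lowest correlation. The part of GC content in the ratio was not tested.

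**Figure D2:**
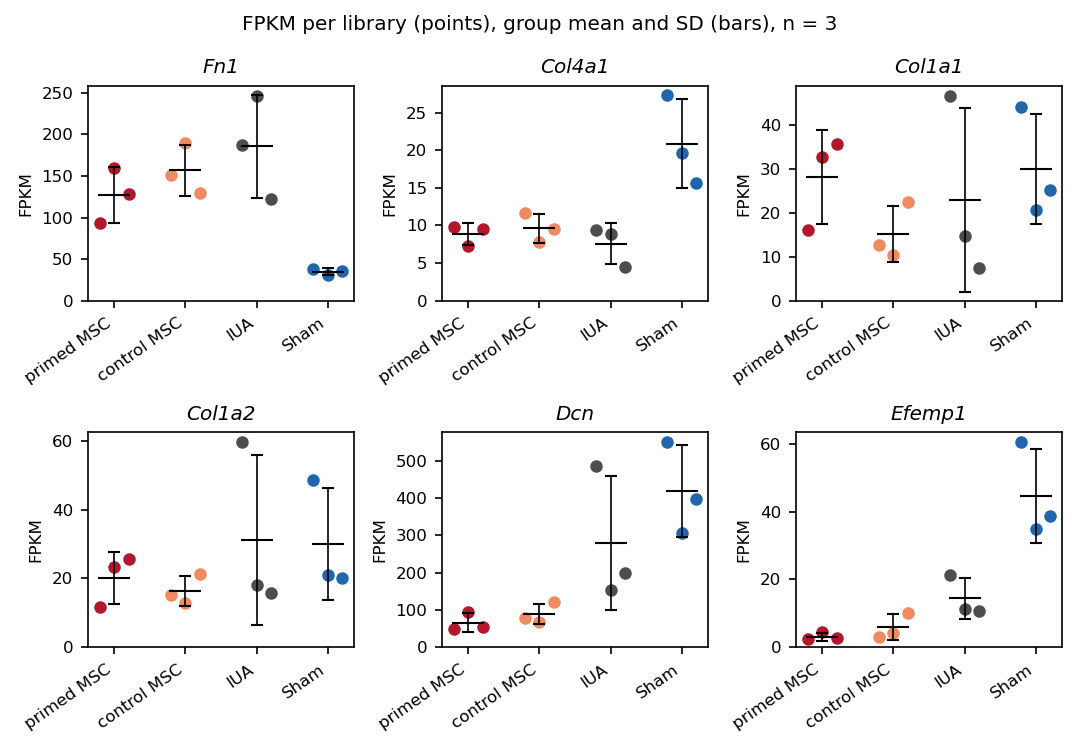
FPKM of 6 matrix genes per library, on a linear axis from 0. Points are the 3 libraries of a group, the long bar is the mean and the whiskers are 1 SD. Fn1 is lowest in Sham, Col4a1 and Efemp1 are highest in Sham, Dcn is lower in primed and control MSC than in every IUA library, and Col1a1 and Col1a2 spread widest in IUA.

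Fibronectin, encoded by Fn1 (chr1:71585520-71653200, mm10), is the glycoprotein that bridges collagen, fibrin and integrins early in wound repair, and macrophages are a known source of it. Fn1 had 186.8, 246.6 and 122.8 FPKM in IUA, against 38.5, 30.7 and 35.9 FPKM in Sham. Every IUA library exceeded every Sham library by more than 3-fold, and Fn1 rose (log2 change 2.32 ± 0.25, limma adjusted p = 4.55e-05). It was the only one of the 37 genes to rise in IUA, against 11.1 percent of all genes tested.

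Fn1 stayed high with treatment, at 93.1, 160.0 and 127.9 FPKM in primed MSC and 150.7, 189.6 and 129.4 FPKM in control MSC. Both treated groups rose against Sham, by 1.80 ± 0.25 and 2.12 ± 0.25 on the log2 scale (limma adjusted p = 1.0e-04 and 4.94e-05). Against IUA neither passed, at -0.52 ± 0.25 for primed and -0.20 ± 0.25 for control MSC, and the 95 percent interval for primed MSC ran from -1.06 to 0.02. Of the 12 genes of the macrophage list, 11 rose in IUA against Sham and none fell; the part of macrophage content in the rise of Fn1 was not tested. Its rise was 2.48 on the log2 scale after correction for transcript GC content and 2.72 with median-ratio scaling.

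The other adhesive genes differed from Fn1. Sparc, a collagen-binding protein, had 60.01, 75.1 and 88.2 FPKM in primed MSC, against 235.3, 123.1 and 113.0 FPKM in IUA, and fell (log2 change -1.004 ± 0.31, limma adjusted p = 0.0408). Postn, which encodes periostin, a fibroblast protein of healing wounds, fell by 1.33 ± 0.40 on the log2 scale (limma adjusted p = 0.0359), with 5.89, 6.48 and 5.98 FPKM in primed MSC and 29.7, 9.85 and 16.1 FPKM in IUA. Tnc and Thbs2, which encode tenascin C and thrombospondin 2, proteins that modulate adhesion, passed in no comparison. Thbs2 was at 11.2 FPKM in IUA replicate 1 and at 2.10 and 1.14 FPKM in the other IUA libraries.

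**Figure D3:**
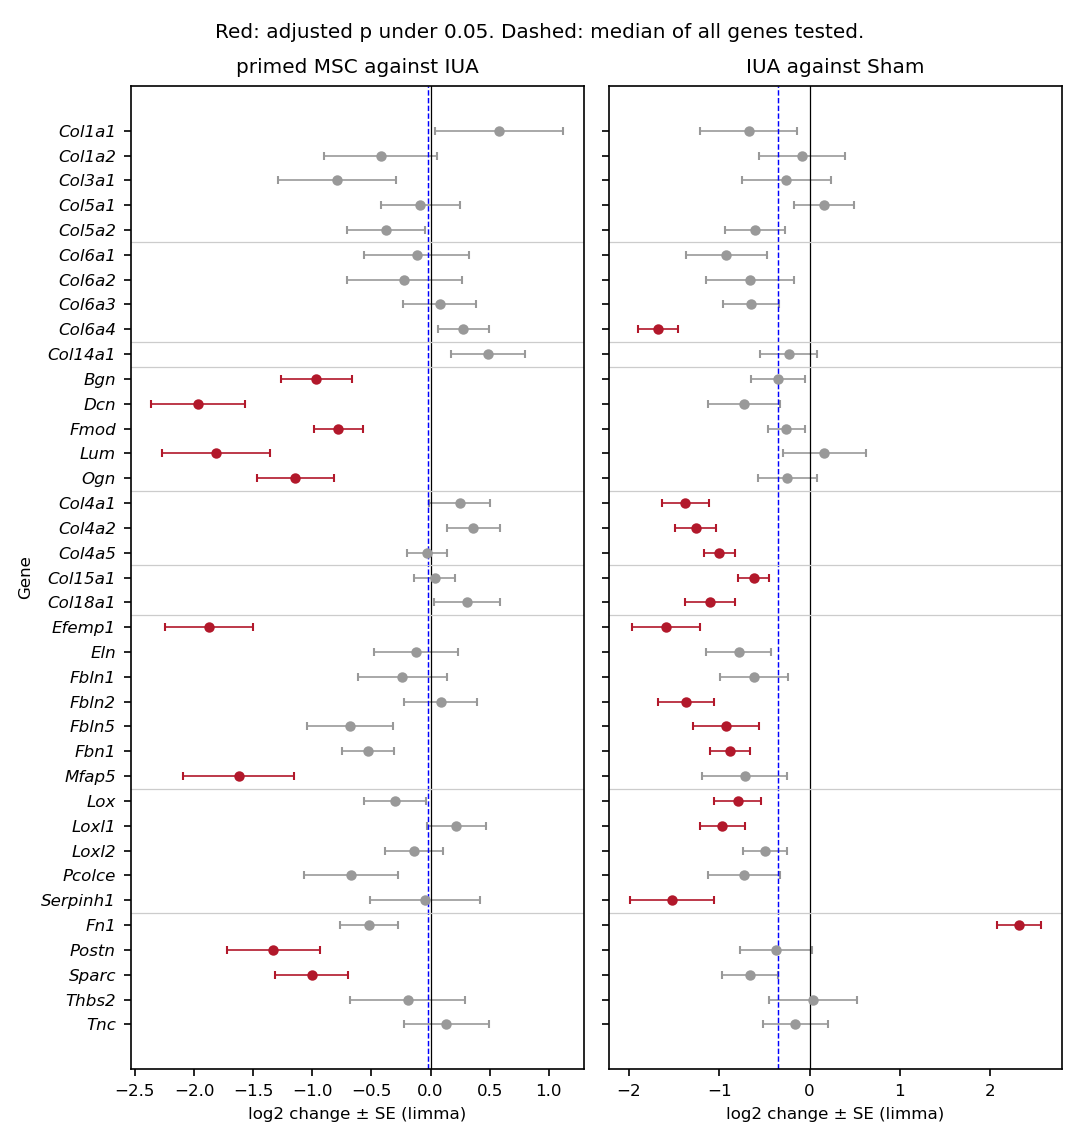
Log2 change with its limma standard error for the 37 genes in primed MSC against IUA (left) and IUA against Sham (right), with genes ordered by role. Red points passed at an adjusted p under 0.05, and the dashed line is the median of all 11604 genes, -0.03 on the left and -0.35 on the right. The 5 proteoglycan genes are red on the left alone, and the type IV and XVIII collagens are red on the right alone. Col6a4 and Col15a1 met the threshold through Sham, so their red points on the right are no test. Fmod met it through IUA and Sham, so its red point on the left is no test either.

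The small leucine-rich proteoglycans bind collagen fibrils and control their width and spacing. Dcn, which encodes decorin and is a marker of fibroblasts (chr10:97479609-97518143, mm10), was the most abundant of the 37 genes in Sham. It had 47.8, 94.5 and 53.1 FPKM in primed MSC, 78.6, 68.7 and 120.6 in control MSC, 486.6, 153.7 and 198.3 in IUA and 550.9, 306.2 and 399.2 in Sham. Both treated groups lay below every IUA library. Dcn fell in primed MSC against IUA (log2 change -1.97 ± 0.40, limma adjusted p = 0.00685), and in control MSC it stood at -1.49 ± 0.40 without passing (limma adjusted p = 0.0899).

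Lum, which encodes lumican and lies beside Dcn, had 12.5, 34.1 and 19.9 FPKM in primed MSC, against 160.3, 47.8 and 53.7 FPKM in IUA. It fell by 1.81 ± 0.46 on the log2 scale (limma adjusted p = 0.0188). Ogn, which encodes osteoglycin, was at 3.45, 8.09 and 5.16 FPKM in primed MSC, 4.14, 3.23 and 2.65 in control MSC and 19.9, 7.91 and 13.3 in IUA. It fell in both treated groups against IUA, by 1.14 ± 0.33 with primed and 1.69 ± 0.33 with control MSC (limma adjusted p = 0.0312 and 0.0422), and its primed and IUA libraries overlapped. Ogn was the only one of the 37 genes to pass in control MSC against IUA, and it lost that call under the GC correction and without any single control MSC library. Bgn (biglycan) fell in primed MSC against IUA by 0.96 ± 0.30 (limma adjusted p = 0.0421). Fmod (fibromodulin) had 0.40, 0.58 and 0.33 FPKM in primed MSC and 2.14, 1.48 and 0.91 FPKM in IUA. It met the threshold through IUA and Sham alone, so its fall by 0.78 ± 0.21 is no test. In IUA against Sham none of the 5 passed, with log2 changes between -0.72 for Dcn and 0.16 for Lum. Without IUA replicate 1, Dcn fell by 1.22 (limma adjusted p = 0.00988).

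For 9 of the 37 genes every primed MSC library lay below every IUA library, beside 17.4 percent of all genes, and Col4a2 alone lay above without overlap, beside 20.1 percent. The median log2 change was -0.22 over the 37 genes and -0.03 over all genes. The 9 genes that fell by the limma test were the 5 proteoglycans, Sparc, Postn, Efemp1 and Mfap5. They are not quite the 9 without overlap, since Ogn overlapped. Fbln5 lay lower without overlap but did not pass, with 20.3 to 30.0 FPKM in primed MSC and 39.0 to 40.05 FPKM in IUA. Fmod is in both sets and met the threshold through IUA and Sham alone. Efemp1, which encodes fibulin 3, an organiser of elastic fibres, had 2.30, 4.47 and 2.57 FPKM in primed MSC, against 21.3, 11.1 and 10.8 FPKM in IUA, and fell by 1.88 ± 0.37 (limma adjusted p = 0.00639). Mfap5, a microfibril protein, averaged 2.98 ± 1.05 FPKM in primed MSC and 11.8 ± 6.06 FPKM in IUA and fell by 1.62 ± 0.47 (limma adjusted p = 0.0328).

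The number of calls depended on single libraries. It was 2 without primed MSC replicate 1 or 3, 5 without primed MSC replicate 2 and 6 without IUA replicate 3. The 2 genes are 5.41 percent of the 37. Of all genes, 2.53 percent fell without primed MSC replicate 1, 4.38 percent without replicate 3 and 3.03 percent without replicate 2. The share of all genes was 3.46 percent without IUA replicate 3 and 6.97 percent with all libraries. Without IUA replicate 1, 3 of the 9 passed, Dcn at -1.47, Efemp1 at -1.58 and Lum at -1.27, and Loxl1 rose by 0.58. That is 8.11 percent of the 37 that fell, against 9.05 percent of all genes. The median log2 change without that library was 0.17 over the 37 genes and -0.04 over all genes. The larger share of falls among the 37 thus rested on IUA replicate 1. Of the 13 measured fibroblast markers, 2 fell and none rose in primed MSC against IUA, with a median of -0.50, and none of 4 mesothelial genes passed, with a median of -1.31. The 2 that fell were Cxcl12, a chemokine of stromal cells, at -1.09 ± 0.29 and Igf1 at -0.998 ± 0.19. The part of fibroblast content in these falls was not tested. Pdgfra, a receptor that defines fibroblasts, was at 0.78, 1.56 and 1.52 FPKM in primed MSC and 5.45, 2.77 and 1.31 FPKM in IUA, which overlapped. Pdgfrb, a receptor of pericytes and fibroblasts on the same list, was at 1.02, 0.88 and 2.00 FPKM in primed MSC and 0.74, 0.39 and 0.33 FPKM in IUA, higher without overlap. Neither passed. With the mean of the fibroblast list as a covariate none of the 9 passed, and Col1a1, Col1a2, Col5a1, Col6a1, Col14a1 and Loxl1 rose, Col1a1 by 1.96. Of the 11604 genes tested, 952 rose and 393 fell in that fit. The fibroblast list did not overlap between primed MSC and IUA, so the covariate and the group can hardly be told apart.

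**Figure D4:**
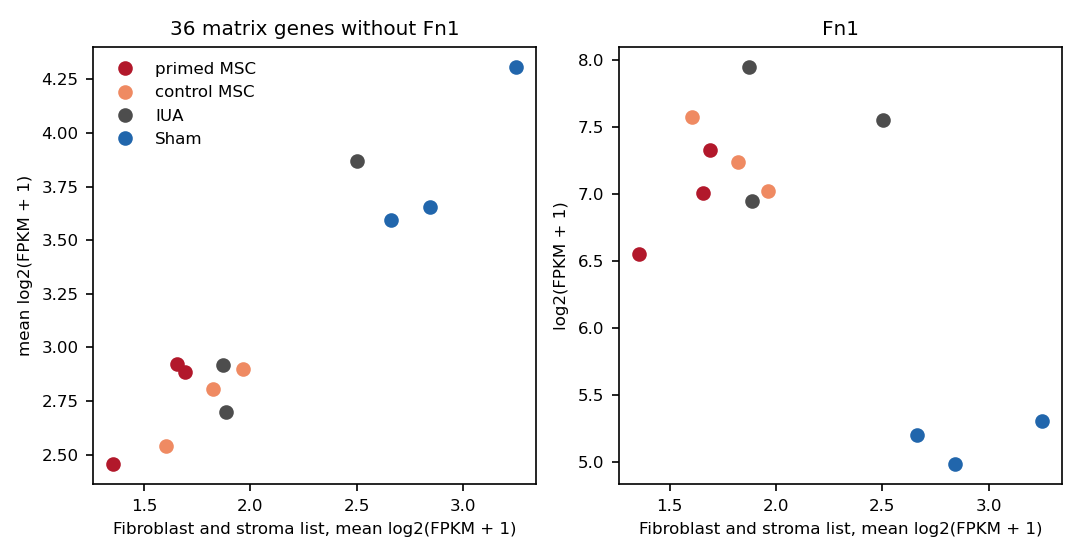
Mean log2(FPKM + 1) of 36 matrix genes without Fn1 (left) and log2(FPKM + 1) of Fn1 (right) against the mean of the 13 fibroblast and stroma genes, per library. On the left the 3 Sham libraries and IUA replicate 1 lie at the upper right, with matrix means between 3.60 and 4.31, and the other 8 libraries lie between 2.46 and 2.92. On the right the 3 Sham libraries lie below all others.

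Base composition also moved with the falls in primed MSC. The transcripts of Ogn, Postn, Dcn and Lum have GC contents of 36.3, 36.3, 37.4 and 41.9 percent, the lowest of the 37. Across the 37 genes the log2 change in primed MSC against IUA had a Pearson correlation with transcript GC of 0.74 (Spearman 0.71), and across all 11601 genes one of 0.35 (Spearman 0.36). Genes are not independent replicates, and the 37 share their libraries. After correction for GC in each library, Dcn at -1.74, Efemp1 at -1.74, Lum at -1.65, Mfap5 at -1.57, Sparc at -1.10, Bgn at -0.997 and Fmod at -0.93 still passed, and Ogn at -0.90 and Postn at -1.09 did not. For Fmod, which met the threshold through IUA and Sham alone, this is no test.

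**Figure D5:**
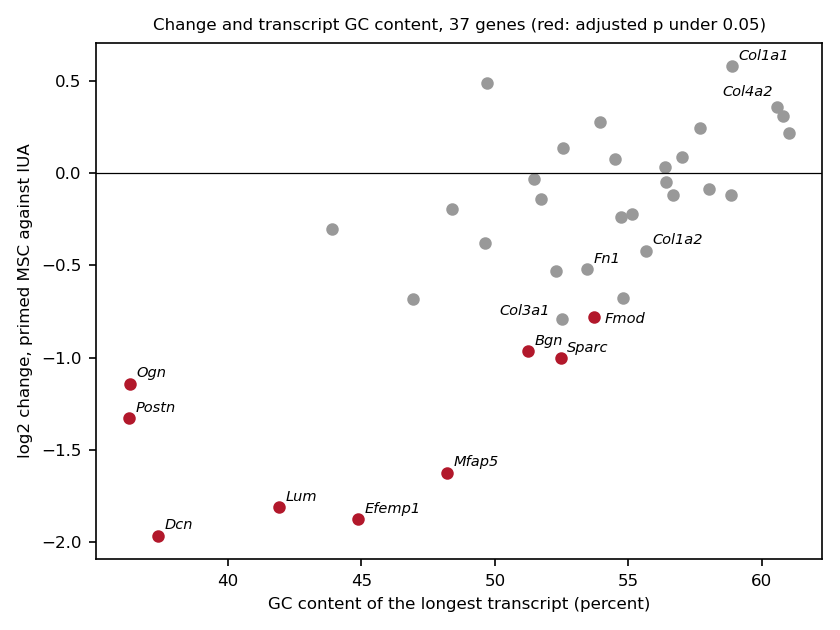
Log2 change in primed MSC against IUA against the GC content of the longest transcript, for the 37 matrix genes. Red points passed at an adjusted p under 0.05. Fmod met the threshold through IUA and Sham, so its red point is no test. The genes with the lowest GC content, Ogn, Postn, Dcn and Lum, all lie below -1, and Col1a1, at 58.9 percent GC, is the highest point at 0.58.

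In control MSC against IUA, Ogn alone of the 37 genes fell and none rose, beside 0.129 percent of all genes that fell and 0.724 percent that rose (0.853 percent in all). Dcn, Lum, Ogn, Efemp1, Postn and Fmod were lower in every control MSC library than in every IUA library, which is 6 of 37 genes beside 7.33 percent of all genes. Fmod is counted among the 6 but met the threshold through IUA and Sham alone, so its values here are no test. Efemp1 had 3.03, 4.26 and 10.2 FPKM in control MSC, against 21.3, 11.1 and 10.8 FPKM in IUA. Apart from Ogn these genes did not pass, with log2 changes of -1.56 ± 0.46 for Lum, -1.25 ± 0.37 for Efemp1, -1.14 ± 0.40 for Postn and -0.65 ± 0.21 for Fmod. The comparisons of primed and of control MSC share the IUA libraries.

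Elastic fibre genes split between the comparisons. Elastic fibres hold a core of elastin on a lattice of fibrillin, with fibulins between them. In IUA against Sham, Efemp1 (-1.59 ± 0.37), Fbln2 (-1.36 ± 0.31), Fbln5 (-0.93 ± 0.37) and Fbn1 (-0.88 ± 0.22) fell, with limma adjusted p of 0.00357, 0.00298, 0.0476 and 0.00512. Efemp1 had 21.3, 11.1 and 10.8 FPKM in IUA, against 60.4, 34.7 and 38.6 FPKM in Sham, and the groups did not overlap. Fbn1 (fibrillin 1) was at 3.76, 1.93 and 1.61 FPKM in IUA and 6.13, 4.97 and 4.31 FPKM in Sham. Eln (elastin), Fbln1 and Mfap5 did not pass. Fbln5, an elastin-binding fibulin, lost its call under many alternatives, among them median-ratio scaling and leaving out any single IUA library.

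Efemp1 was the one gene of the 37 that fell both in IUA against Sham and in primed MSC against IUA. Those comparisons share the IUA libraries. Its means were 3.11 ± 1.18 FPKM in primed MSC, 5.83 ± 3.84 in control MSC, 14.4 ± 5.96 in IUA and 44.6 ± 13.8 in Sham (SD, n = 3). Against Sham directly it fell by 3.46 ± 0.37 with primed MSC and 2.84 ± 0.37 with control MSC.

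Of the 5 genes that process and cross-link collagen, 3 fell in IUA against Sham, beside 45 percent of all genes. With median-ratio scaling only Loxl1 of the 3 still fell. Serpinh1, which encodes the collagen chaperone HSP47, had 74.9, 43.5 and 16.1 FPKM in IUA, against 160.4, 91.0 and 92.1 FPKM in Sham, and fell (log2 change -1.53 ± 0.47, limma adjusted p = 0.015). It did not pass without IUA replicate 3 or Sham replicate 1. Lox and Loxl1, oxidases that cross-link collagen and elastin, fell by 0.80 ± 0.26 and 0.97 ± 0.25 on the log2 scale (limma adjusted p = 0.0203 and 0.00628). Pcolce, an enhancer of procollagen cleavage, and Loxl2 did not pass. Lox lost its call in a fit of the 2 groups alone, and without Sham replicate 1 or IUA replicates 2 or 3.

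None of these 5 genes passed in either treated group against IUA. Serpinh1 was at 28.8, 38.8 and 43.1 FPKM in primed MSC and 38.3, 26.3 and 66.5 FPKM in control MSC. Of 19 measured enzymes of collagen synthesis outside the 37, 9 fell and 2 rose in IUA against Sham, a share close to the 45 and 11.1 percent of all genes. Tll1, a procollagen protease of the tolloid family, fell by 1.51 ± 0.17 and P3h2, a prolyl hydroxylase, by 1.46 ± 0.19. In primed MSC against IUA 1 rose and 1 fell, and the one that fell was P4ha2, a prolyl hydroxylase that stabilises the triple helix (-0.57 ± 0.17, limma adjusted p = 0.0347).

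The 13 of 37 matrix genes that fell in IUA against Sham are a smaller share, 35.1 percent, than the 45 percent of all genes that did so. That order rested on 1 library: without IUA replicate 1, 25 of the 37 fell and 1 rose, which is 67.6 percent that fell against 40.9 percent of all genes. For 12 of the 37 every IUA library lay below every Sham library, beside 47.7 percent of all genes. The median log2 change of the 37 was -0.66, and that of all genes was -0.35. After median-ratio scaling the median of all genes was -0.01, and 8 of the 37 fell and 1 rose, 21.6 percent that fell against 22.1 percent of all genes. These counts include Col6a4 and Col15a1 where they passed. With median-ratio scaling Efemp1 (-1.19), Col4a1 (-0.996), Fbln2 (-0.99), Col4a2 (-0.92), Col18a1 (-0.78), Col4a5 (-0.73) and Loxl1 (-0.71) still fell.

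Marker lists of other cell types moved with the same comparison, and their part in the falls was not tested. Of the 13 fibroblast genes 10 fell and 1 rose, the one that rose was Igf1, and the median was -0.98. Of 10 smooth muscle and pericyte genes 6 fell, with a median of -0.96. Among all genes tested 45 percent fell, and their median was -0.35. With the fibroblast list as a covariate 12 of the 37 genes rose, among them Col1a1, Col1a2, Col3a1 and Lum, and none of the 37 other than Col6a4 fell. Of the 11604 genes tested, 991 rose and 2706 fell in that fit. Every Sham library lay above every IUA library on the fibroblast list. The covariate and the group can therefore hardly be told apart here either.

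Among genes outside the 37 that degrade matrix or inhibit its degradation, more rose than fell in IUA. Of 13 measured metalloproteinases, their inhibitors and cathepsin K, 7 rose and 1 fell against Sham, beside 11.1 percent of all genes that rose and 45 percent that fell. Mmp12, the macrophage elastase, averaged 469 FPKM in IUA and 69.6 FPKM in Sham (log2 change 2.76 ± 0.36), and Timp1, an inhibitor of these enzymes, rose by 2.10 ± 0.30. The 1 that fell was Timp3, another of the inhibitors (log2 change -1.73 ± 0.26). In primed MSC against IUA, Mmp9, a gelatinase, rose by 2.32 ± 0.26, and the elastase Mmp12 and the collagen-degrading protease Ctsk fell by 1.39 ± 0.36 and 1.42 ± 0.26. Of 11 measured receptors for collagen and fibronectin, 3 rose and 5 fell in IUA against Sham. The share that fell is close to the 45 percent of all genes that did so. Lair1, an inhibitory collagen receptor of leukocytes, rose by 1.21 ± 0.13, and Cd44, a receptor for hyaluronan and matrix, by 1.04 ± 0.11. Ddr1, a collagen receptor of epithelium, fell by 2.33 ± 0.29, and Itga5, a chain of the fibronectin receptor, by 2.56 ± 0.46. In primed MSC against IUA none rose and 2 fell, beside 12.2 percent of all genes that rose and 6.97 percent that fell. The 2 were the integrin genes Itgav and Itga1, by 0.72 ± 0.17 and 0.62 ± 0.16.

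Against Sham both treated groups were lower for most of the 37 genes. In primed MSC 25 fell and 1 rose, where 59.5 percent of all genes passed, 45 percent as lower and 14.5 percent as higher. In control MSC 25 fell and 1 rose, where 56.8 percent of all genes passed, 42.7 percent as lower and 14.1 percent as higher. In each, 28 of the 37 lay below Sham without overlap, beside 50.6 percent of all genes with primed and 49.6 percent with control MSC. These counts include Col6a4 and Col15a1, and among the other 35 genes 23 fell in each. Fmod, which also needed Sham to meet the threshold, is among the 23 in both. The gene that rose was Fn1 in both. The medians over the 37 were -1.04 with primed and -1.03 with control MSC, against -0.33 and -0.30 over all genes. With median-ratio scaling 19 fell with primed MSC, 51.4 percent against 25.1 percent of all genes, and 17 with control MSC, 45.9 percent against 24.2 percent. Dcn fell by 2.69 ± 0.40 with primed and 2.22 ± 0.40 with control MSC (limma adjusted p = 1.63e-04 and 6.29e-04). Col1a1 did not pass in either, at -0.09 ± 0.54 and -0.93 ± 0.54, and Col1a2 and Col3a1 did not pass. Without IUA replicate 1, which enters these comparisons through the shared estimate of spread, Col3a1 passed with primed MSC at -1.05 and with control MSC at -1.03. The fibroblast list of every treated library lay below that of every Sham library.

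Between the treatments no gene of the 37 passed. Against control MSC, primed MSC gave adjusted p of 0.449 or more by limma, none of the 37 had an unadjusted p under 0.05, and 0.112 percent of all genes tested passed, 0.0776 percent as higher and 0.0345 percent as lower. The median log2 change was -0.01 over the 37 genes. Col1a1 had the highest value, 0.84 ± 0.54, with a 95 percent interval from -0.34 to 2.02. Dcn stood at -0.47 ± 0.40, with an interval from -1.34 to 0.39, and Efemp1 at -0.63 ± 0.37, with one from -1.44 to 0.18. Pcolce alone did not overlap between these groups, with 4.04, 4.92 and 5.63 FPKM in primed MSC and 6.19, 5.67 and 11.4 FPKM in control MSC, beside 12.9 percent of all genes that were lower without overlap.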

How the data were processed

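Endometrial F4/80-sorted cells gave 12 libraries in 4 groups of 3, mapped to groups by their labels. The values are the authors' deposited FPKM, whose processing is credited to mm10, fastp, HISAT2, StringTie, RSEM and DESeq2 in the submitters' processing notes, without versions or roles. The table holds no counts, and low values showed no whole-read steps in 66 pairs of libraries, so depth is unknown and no counting interval is given. Human RNA from the MSC was not analysed here.

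From the deposited FPKM, log2(FPKM + 1) was fitted with limma 3.58.1 in R 4.3.3, with 1 mean per group over all 12 libraries and a variance trend, for 11604 genes at 1 FPKM or more in 3 or more libraries. The tests are 2-sided and the Benjamini-Hochberg adjusted p covers all these genes. Because of the pseudocount of 1, fold changes of low genes are understated. The smallest p that exact permutation of 3 and 3 libraries allows is 0.1. The script was tested on simulated data.

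The matrix genes and all lists were chosen with earlier results of these data known. Genes named with statistics are Col1a1, Col1a2, Col3a1, Col4a1, Col4a2, Col6a1, Dcn, Fn1, Sparc and Serpinh1, up to 12 other matrix genes with the smallest p per comparison, and up to 3 per list of other genes. Further genes, Pdgfra, Pdgfrb and Itga5 among them, and the Col1a1 to Col1a2 ratio were added after their values were seen. Alternatives were 2 pseudocounts, 2 filters, 2 scalings, the compared groups alone, a replicate block, a GC correction (lowess, span 0.3), a fibroblast covariate and leaving out each library. Positions and GC content come from GENCODE annotation of mm10. No pair of libraries held identical values.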

Additional observations from a re-analysis of the deposited data

How the results depend on the processing

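In all, 10 alternatives and the removal of each of the 12 libraries were run. With the fibroblast list as a covariate the number of matrix genes that passed was 14 among the 4 groups, 11 in primed MSC against Sham, 9 in control MSC against Sham and 0 in control MSC against IUA. Of all genes, 34.5 percent passed among the 4 groups, 22.2 percent in primed MSC against Sham and 25.6 percent in control MSC against Sham. In control MSC against IUA the share of all genes was 0.517 percent. That covariate also turned the direction of 29 named values that passed with or without it, and no other alternative turned such a value. In primed MSC against Sham the log2 changes became 3.50 for Col1a1, 2.95 for Col1a2, 2.48 for Col3a1, 2.00 for Col6a1, 1.24 for Serpinh1, 0.62 for Bgn, 0.56 for Sparc, 0.49 for Lox, 0.40 for Mfap5, 0.39 for Ogn, 0.39 for Postn, 0.13 for Col4a2 and 0.12 for Fbln2. In control MSC against Sham they became 2.12 for Col1a2, 2.05 for Col1a1, 1.89 for Col3a1, 1.06 for Col6a1, 0.91 for Serpinh1, 0.78 for Sparc, 0.36 for Col6a3 and 0.23 for Postn. In IUA against Sham they became 2.05 for Col1a2, 1.91 for Col3a1, 1.54 for Col1a1, 0.71 for Sparc, 0.20 for Serpinh1 and 0.18 for Lox, and in primed MSC against IUA 1.05 for Col6a1 and 0.91 for Col1a2. The covariate and the groups largely cannot be told apart.

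A filter at 5 FPKM, which left 24 of the 37 genes, gave 16 among the 4 groups, 8 in IUA against Sham and 17 against Sham with either treatment. Of all genes at that filter, 72 percent passed among the 4 groups and 59.8 percent in IUA against Sham. Against Sham it was 63.3 percent with primed and 60.4 percent with control MSC. Median-ratio scaling gave 9 in IUA against Sham, beside 45 percent of all genes. With no filter 4 passed in primed MSC against IUA, beside 9.61 percent of all genes, and the cause was not tested. The single call in control MSC against IUA, Ogn, was lost (0 genes) with no filter, in the compared groups alone, with the GC correction and with the replicate block. The replicate block gave 24 genes among the 4 groups, 14 in IUA against Sham, 9 in primed MSC against IUA, 27 in control MSC against Sham, 26 in primed MSC against Sham and 0 between the treatments. Of all genes, 63.9 percent passed among the 4 groups, 54.3 percent in IUA against Sham and 16.6 percent in primed MSC against IUA. Against Sham it was 55.6 percent with control and 58.3 percent with primed MSC, and none passed between the treatments. Same-numbered libraries did not all deviate together, either in IUA and Sham (correlations 0.288, 0.198 and -0.04) or in primed MSC and IUA (-0.072, -0.172 and 0.048), so the numbers were not taken as pairs.

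Leaving out 1 library gave 18 to 31 genes among the 4 groups, 11 to 26 in IUA against Sham, 0 to 1 in control MSC against IUA, 2 to 9 in primed MSC against IUA, 19 to 30 in control MSC against Sham, 21 to 30 in primed MSC against Sham and 0 between the treatments. The 26 came without IUA replicate 1. With 3 libraries a group and depth unknown, small changes of genes near 1 FPKM could not be resolved.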
